A study of Mus musculus with 6 samples.

Results

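The 34 genes described here encode lysosomal hydrolases, activators and membrane proteins, together with TFEB and TFE3, transcription factors that act on such genes. They were taken as the entries of the deposited gene tables that carry one of these 34 gene symbols. Each symbol was found, among 25805 listed genes. The rule uses no measured value, but the members were chosen with earlier results of these data known. By role they are 8 cathepsin proteases, 10 glycosidases and sulfatases, 5 lipid enzymes, activators and granulin, 7 membrane proteins and 2 transcription factors. The remaining 2 are other proteases, Tpp1 and Ctsa, which is also called cathepsin A.

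Expression was measured by RNA sequencing of mouse kidneys, 3 labelled Cxcr2 knockout and 3 labelled wild type. All 6 kidneys had undergone ischaemia-reperfusion injury (IRI), in which the blood supply is interrupted and then restored. Uninjured kidneys were not analysed here, so every comparison is one between injured kidneys. Not given in the sources used here were strain, age, sex, time after injury, the deleted part of Cxcr2 and the cells in which it was deleted. The labels also do not state whether the libraries came from different animals, so p measures only how far these samples differ from one another, possibly for technical reasons.

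The lysosome is the acidic organelle in which material delivered by endocytosis and autophagy is broken down. Its soluble enzymes are synthesised as glycoproteins, most of them are tagged with mannose 6-phosphate, and the membrane around them is lined with heavily glycosylated proteins such as LAMP1 and LAMP2. In the kidney, proximal tubule cells reabsorb filtered protein and degrade it in abundant lysosomes. The factors TFEB and TFE3 bind E-box sequences with the core CACGTG, found in many lysosomal gene promoters, and are held in the cytoplasm by mTORC1 at the lysosomal surface when nutrients are plentiful.

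The libraries held 17372645 to 17937195 recovered reads in the group labelled knockout and 15518083 to 20356601 reads in the wild-type group. Cxcr2, the chemokine receptor that the labels name as deleted, had 98.0, 36.8 and 56.6 normalized counts (reads divided by the size factor of the library) in the libraries labelled knockout and 15.9, 88.8 and 56.9 in the wild-type libraries. The groups overlapped (log2 fold change of labelled knockout over wild type 0.43, SE 0.64, BH-adjusted p = 0.841 by limma). Because the sums cover the whole gene, reads from outside a deleted part check nothing, and every direction given is one between libraries labelled knockout and wild type. Knockout libraries 1 and 3 stood apart from the others along the first and second principal components, which held 48.3% and 27.3% of the variance over 12841 genes. Proximal tubule markers summed to 261759 to 286583 normalized counts in the libraries labelled knockout and 241047 to 318345 in wild type. No marker of that list was at 0 in any library.

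Promoter sequences are shown for 5 of the 9 members found to carry the E-box core that TFEB and TFE3 recognise. These 5 were picked by name and not by a rule. RefSeq promoters (GRCm38.p6, 250 bases before to 50 bases after each start) were matched for 29 of the 34 members. Ctsb, Ctsh, Npc1, Galns and Asah1 had none in the table. The palindrome CACGTG, which reads the same on both strands, occurred in the promoter of 9 of the 29 members (31%): Arsa, Ctsa, Ctsd, Ctsl, Gaa, Gla, Glb1, Lamp1 and Mcoln1. It occurred for 10.5% of 13770 tested genes with a promoter in the table and in 7.15% of all 32851 promoters. The longer GTCACGTG, searched on both strands and overlapping the core, occurred for 7 of 29 members (24.1%) and for 4.08% of the tested genes, and its extension by AC on the other side occurred for none of the members. A match is a description of these letters and not of binding. The lines give the 250 bases before and the first 20 bases after the start, 5′ to 3′ on the gene's own strand, with capitals on each CACGTG, on a GT directly before it and on an AC directly after it.
Ctsa, chr2:164833523-164833792, + strand: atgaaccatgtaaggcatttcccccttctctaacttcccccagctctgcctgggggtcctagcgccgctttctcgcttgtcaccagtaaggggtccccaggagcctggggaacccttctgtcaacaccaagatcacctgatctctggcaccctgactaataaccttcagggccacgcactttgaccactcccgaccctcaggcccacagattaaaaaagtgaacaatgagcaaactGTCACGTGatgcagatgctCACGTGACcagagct
Lamp1, chr8:13158911-13159180, + strand: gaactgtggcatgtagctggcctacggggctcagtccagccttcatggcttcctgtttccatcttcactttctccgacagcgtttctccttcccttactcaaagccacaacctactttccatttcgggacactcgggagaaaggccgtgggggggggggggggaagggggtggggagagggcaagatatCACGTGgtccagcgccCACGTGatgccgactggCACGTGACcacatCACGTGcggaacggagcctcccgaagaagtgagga
Mcoln1, chr8:3500269-3500538, + strand: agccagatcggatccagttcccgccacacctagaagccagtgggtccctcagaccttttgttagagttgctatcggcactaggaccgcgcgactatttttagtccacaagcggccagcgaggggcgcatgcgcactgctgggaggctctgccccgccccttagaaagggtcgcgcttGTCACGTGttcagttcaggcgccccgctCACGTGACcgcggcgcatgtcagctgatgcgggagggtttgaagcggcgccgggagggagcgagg
Ctsd, chr7:142387808-142388077, - strand: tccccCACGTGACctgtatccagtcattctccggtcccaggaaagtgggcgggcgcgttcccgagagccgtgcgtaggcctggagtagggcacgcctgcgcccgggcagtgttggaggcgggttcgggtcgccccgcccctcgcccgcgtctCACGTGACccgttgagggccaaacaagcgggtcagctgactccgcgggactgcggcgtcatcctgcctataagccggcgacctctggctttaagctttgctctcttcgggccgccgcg
Gaa, chr11:119267713-119267982, + strand: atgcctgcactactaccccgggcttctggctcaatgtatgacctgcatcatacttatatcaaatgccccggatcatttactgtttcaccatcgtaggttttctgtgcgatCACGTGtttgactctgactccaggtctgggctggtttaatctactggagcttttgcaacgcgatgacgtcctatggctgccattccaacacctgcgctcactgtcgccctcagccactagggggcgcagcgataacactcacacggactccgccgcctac
The promoter of Lamp1 held 4 cores, with first bases 61, 45, 28 and 15 bases before the start. Mcoln1 held cores 71 and 45 bases before the start, Ctsd held cores 245 and 98 bases before it, and Gaa held 1 core 140 bases before it. The Ctsa promoter shown is that of its second listed start, with cores 12 bases before and 5 bases after it, and the promoter of its other listed start held none. All these starts are those of RefSeq. For Mcoln1, Ctsd, Gaa and the Ctsa promoter shown, they lay inside the deposited bounds of the gene. The nearer cores of Mcoln1 and Ctsd and both of Ctsa therefore also lay inside those bounds. Of the 9 members with the core, 7 had a positive log2 fold change in the libraries labelled knockout (median 0.196), and of the 20 members without it, 10 did (median -0.0064). Without knockout libraries 1 and 3, which leaves 1 library in that group, Ctsl, Gla and Glb1 turned to -0.12, -0.20 and -0.031. Ctsa, Gaa, Lamp1 and Mcoln1 stayed positive, and Arsa and Ctsd stayed negative. Of the members without the core, Lamp2, Hexa, Npc2 and Manba turned negative and Cd63 turned positive. None of these promoters was measured for binding, so the split by core describes the members and tests nothing.

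Levels were compared between genes per kilobase of the deposited gene length, as normalized counts per kilobase over all 6 libraries. Prosaposin (Psap), the precursor of the saposins that help lipid hydrolases, stood highest at 13387 ± 1481 per kilobase (SD, n = 6). The aspartyl protease cathepsin D (Ctsd) followed at 8012 ± 1044 per kilobase, and the membrane glycoprotein Lamp1 at 7364 ± 1011 per kilobase. The tetraspanin Cd63 averaged 5973 ± 1041 per kilobase and cathepsin B (Ctsb) 4717 ± 1183 per kilobase. At the other end, the cholesterol exporter gene Npc1 averaged 56.1 ± 17.6 per kilobase, the alpha-galactosidase gene Gla 60.0 ± 13.7 per kilobase and cathepsin K (Ctsk) 61.8 ± 50.5 per kilobase. Of the 33 neighbouring pairs in this order, 31 had overlapping ranges over the libraries. The exceptions were Psap above Ctsd and Ctsb above Laptm4a, so the rank of most members among their neighbours was within the spread between libraries. The order also depends on the length used. For Npc1 the deposited length was 10725 bases and the longest annotated transcript 5756 bases, and for Gla these were 3265 and 3172 bases.

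**Figure D1:**
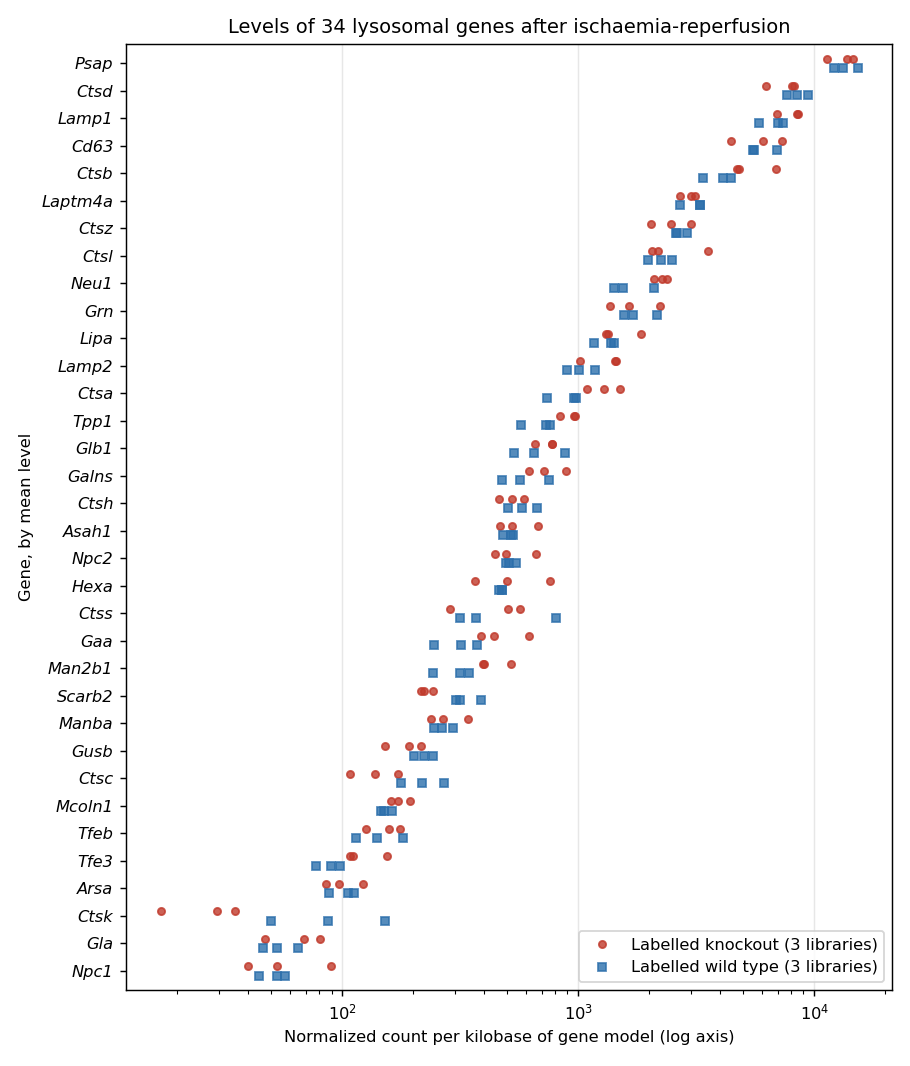
Normalized counts per kilobase (log axis) of the 34 members, ordered from the highest mean over the 6 libraries to the lowest, with 1 point per library (circles, labelled knockout; squares, wild type). The means run from 13387 for Psap down to 56.1 for Npc1, and most neighbours overlap.

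As a set, the members overlapped between groups. In bulk tissue, fewer cells of a type and less RNA per cell cannot be told apart. The members summed to 218510.0, 203349.9 and 257097 normalized counts in knockout libraries 1, 2 and 3, which was 1.13%, 1.20% and 1.39% of each library. In wild-type libraries 1, 2 and 3 they summed to 210379, 188866 and 218816, or 1.24%, 1.14% and 1.24%. The means were 226319 ± 27711 in the libraries labelled knockout and 206020.4 ± 15444 in wild type (SD, n = 3 each), with overlapping ranges. The median over the members' log2 fold changes was 0.11, beside -0.001 over all 21721 genes tested, and 21 of the 34 were higher and 13 lower in the libraries labelled knockout, while 49.9% of all tested genes were higher. The median was -0.066 when both knockout libraries 1 and 3 were left out, a choice made after seeing the data that leaves 1 library in that group.

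No member passed limma's threshold of 0.05 for the p adjusted after Benjamini and Hochberg (BH), where the smallest member value was 0.383 (Ctsk), and across all genes tested 0.0046% passed. An unadjusted p under 0.05 was found for 9 members, 6 higher and 3 lower, beside 10.1% of all tested genes (3.94% higher, 6.14% lower). By edgeR's quasi-likelihood test on the recovered reads none of the members passed either, where 0.00628% of genes did. By DESeq2 1 member passed, Ctsk, lower in the libraries labelled knockout, where 1.8% of genes passed (0.598% higher, 1.2% lower). The groups did not overlap for 10 of 34 members (29.4%), beside 17.7% of all tested genes. Of these, 7 were higher in the libraries labelled knockout (Ctsa, Tpp1, Ctsb, Gaa, Man2b1, Neu1 and Tfe3), where 8.27% of all genes were, and 3 were lower (Ctsc, Ctsk and Scarb2), where 9.43% were. With 3 libraries a group, an exact permutation test of 1 gene cannot go below 0.1, and the p-values given are therefore those of models fitted over the whole gene table. The median SE of a member's log2 fold change was 0.19, beside 0.39 over all tested genes.

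**Figure D2:**
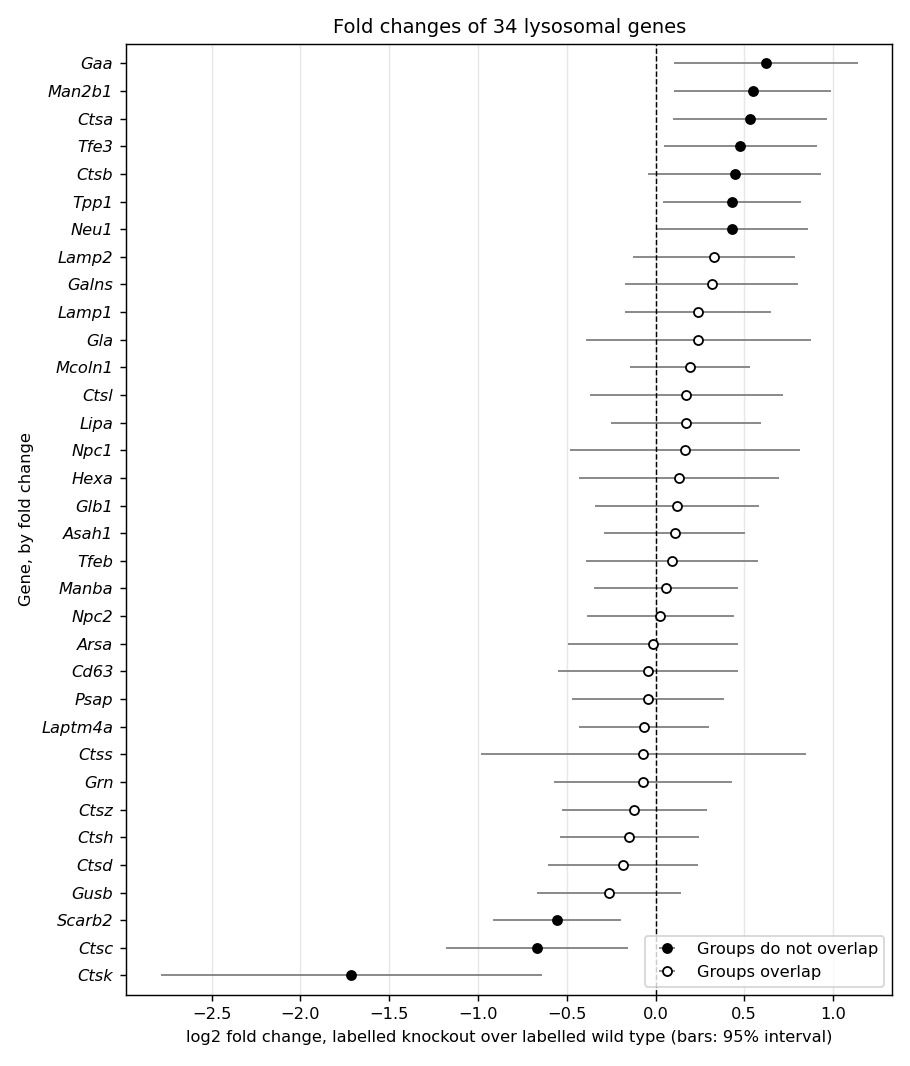
Log2 fold change of labelled knockout over wild type for the 34 members, with 95% intervals from limma, ordered by fold change. The scale is log2(normalized count + 1). Filled points mark members whose groups do not overlap, and open points mark members whose groups overlap. Values run from -1.71 for Ctsk to 0.62 for Gaa, and no member passed limma's adjusted threshold.

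The libraries within a group differed from one another in these genes. Relative to the wild-type mean, the median member stood at 0.15, -0.066 and 0.30 log2 units in knockout libraries 1, 2 and 3, and at -0.021, -0.068 and 0.13 in wild-type libraries 1, 2 and 3. Knockout libraries 1 and 3 held the highest value of 12 and 10 members, and knockout library 2 that of 1 member. The lowest value was in wild-type library 2 for 13 members and in knockout library 2 for 10. Libraries 1 and 3 of the knockout group differed in which members were high: Gaa was 0.68 and Npc1 0.76 log2 units higher in library 1, whereas Ctsl, Cd63 and Grn were at -0.71, -0.71 and -0.70 log2 units in library 1 relative to library 3. The highest library exceeded the lowest by 1.22-fold for Laptm4a and by 2.81-fold for the macrophage-rich protease Ctss, and by 8.95-fold for Ctsk.

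**Figure D3:**
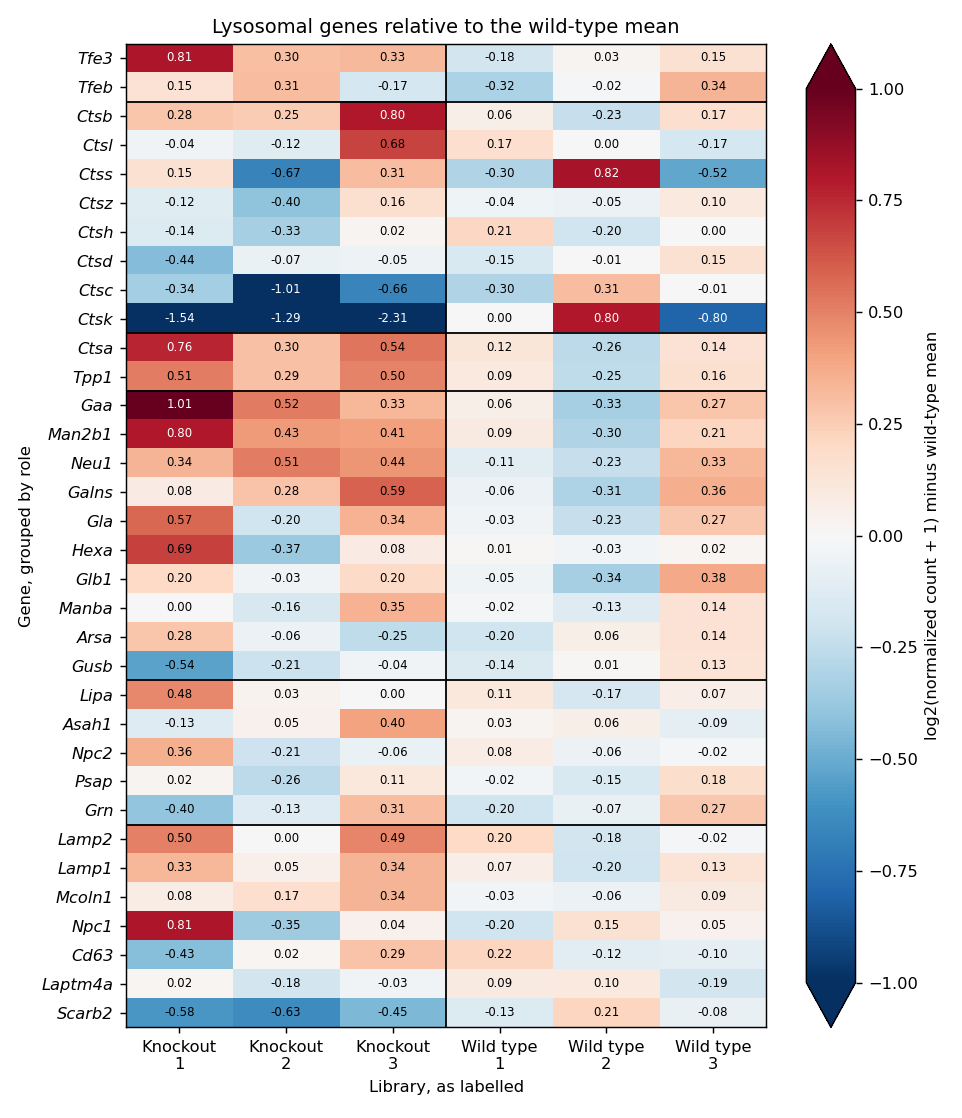
Log2 level of each member relative to its wild-type mean, 1 column per library with the libraries labelled knockout on the left and wild type on the right; colours are capped at 1 and -1 and the printed numbers are not. Knockout libraries 1 and 3 hold the highest value of 12 and 10 members, and Ctsk lies below the wild-type mean in all 3 libraries labelled knockout.

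Of the transcription factors, Tfe3 (chromosome X, 7762560 to 7775202, + strand, mm10) had 1427, 1003 and 1023 normalized counts in the libraries labelled knockout and 719, 832 and 908 in the wild-type libraries. All values labelled knockout lay above all wild-type values, with library 1 highest. Its log2 fold change was 0.48 (SE 0.19, 95% CI 0.05 to 0.91, BH-adjusted p = 0.463 by limma), and 0.31 without knockout library 1. Tfeb (chromosome 17, 47737030 to 47792419, + strand) had 891, 998 and 713 normalized counts in the libraries labelled knockout and 645, 793 and 1020.5 in wild type, so that the groups overlapped, with a log2 fold change of 0.09 (SE 0.21, 95% CI -0.39 to 0.58, BH-adjusted p = 0.905 by limma). These values count transcripts and say nothing of where in the cell the factors were.

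Cathepsin A (Ctsa), higher in the libraries labelled knockout at 0.53 on the log2 scale, was placed with the other proteases below. It is not among the 8 cathepsins counted here. Of these 8, 2 were higher and 6 lower in the libraries labelled knockout, with a median log2 fold change of -0.13. That median was -0.26 without knockout library 3, -0.02 without knockout library 2 and -0.36 without knockout libraries 1 and 3. Cathepsin K, a collagen-degrading cysteine protease best known from osteoclasts, showed the widest difference of the members. Ctsk (chromosome 3, 95499256 to 95509362, + strand) had 44.6, 53.2 and 25.7 normalized counts in the libraries labelled knockout and 131, 230.4 and 75.1 in the wild-type libraries. The groups did not overlap, and the means were 41.2 ± 14.1 in the libraries labelled knockout and 146 ± 78.6 in wild type (SD, n = 3 each). The fitted log2 fold change was -1.71 (SE 0.47, 95% CI -2.79 to -0.64, BH-adjusted p = 0.383 by limma). With DESeq2 Ctsk fell by 1.82 on the log2 scale (adjusted p = 0.0199), with edgeR's quasi-likelihood test its adjusted p was 0.359, and it rests on 25 to 249 reads per library. The limma value was between -2.11 and -1.31 when any single library was left out and -1.29 without knockout libraries 1 and 3. Fibroblast and matrix markers were lower in the libraries labelled knockout for 9 of 9 genes, while 49.9% of all tested genes were higher. Their list median was -1.71 on the log2 scale. Of these markers, 5 fell with DESeq2, where 1.2% of genes did. They summed to 7189, 13125 and 4569 normalized counts in the libraries labelled knockout and 27235, 35541 and 16296 in the wild-type libraries, in the same order of libraries within each group as Ctsk. Their part in the Ctsk value was not tested.

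Cathepsin C (Ctsc, chromosome 7, 88278085 to 88310888, + strand), the dipeptidyl peptidase that activates granule serine proteases of leukocytes, had 1000.2, 628 and 801 normalized counts in the libraries labelled knockout and 1025, 1567 and 1258 in wild type. Its groups did not overlap, but knockout library 1 and wild-type library 1 nearly met. This gave a log2 fold change of -0.67 (SE 0.22, 95% CI -1.18 to -0.16, BH-adjusted p = 0.423 by limma). Cathepsin S (Ctss), an elastin-degrading protease of antigen-presenting cells, overlapped widely, with 685, 389 and 767 normalized counts in the libraries labelled knockout and 502, 1093 and 430.0 in wild type.

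Cathepsin B (Ctsb, chromosome 14, 63122462 to 63145923, + strand), a cysteine protease with endo- and exopeptidase activity, had 28986, 28456 and 41693 normalized counts in the libraries labelled knockout and 24885, 20366 and 26886 in wild type. No value was shared between the groups' ranges, and knockout library 3 stood well above the rest. Against wild type the log2 fold change was 0.45 (SE 0.21, 95% CI -0.04 to 0.93, BH-adjusted p = 0.528 by limma) and 0.27 without knockout library 3. Cathepsin L (Ctsl, chromosome 13, 64359337 to 64370890, - strand), an endopeptidase of the same papain family, had 14074, 13272 and 23102 normalized counts in the libraries labelled knockout and 16238, 14487 and 12796 in wild type. Here too library 3 of the knockout group was highest and the groups overlapped, with a log2 fold change of 0.17 (SE 0.24, BH-adjusted p = 0.826 by limma) that was -0.08 without that library. Interferon-stimulated markers summed to 39455 normalized counts in the same library 3, against 3424 and 4032 in the other libraries labelled knockout and 1768 to 3395 in wild type, and their part in these values was not tested. Cathepsin D (chromosome 7, 142375911 to 142388038, - strand) had 14725, 18986 and 19290.3 normalized counts in the libraries labelled knockout and 17977, 19852 and 22185 in wild type. The ranges overlapped, at a log2 fold change of -0.18 (SE 0.19, BH-adjusted p = 0.749 by limma) that was -0.06 without knockout library 1 and -0.11 without wild-type library 3. Ctsh and Ctsz, which trim peptides from their ends, were at -0.15 and -0.12 on the log2 scale with overlapping groups, and Ctsh ran from -0.25 to -0.04 when single libraries were left out.

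Both other proteases were higher in every library labelled knockout than in any wild-type library. Ctsa (chromosome 2, 164832873 to 164841032, + strand), the protective protein that shields neuraminidase and beta-galactosidase in a shared complex, had 7085, 5133 and 6062 normalized counts in the libraries labelled knockout and 4536, 3485 and 4620.0 in wild type. That is a log2 fold change of 0.53 (SE 0.19, 95% CI 0.10 to 0.96, BH-adjusted p = 0.434 by limma). Tpp1 (chromosome 7, 105744811 to 105752235, - strand), a tripeptidyl peptidase, had 5005, 4299.6 and 4960.5 normalized counts in the libraries labelled knockout and 3755, 2954 and 3924 in wild type. On the log2 scale its fold change was 0.43 (SE 0.17, 95% CI 0.04 to 0.82, BH-adjusted p = 0.463 by limma). Wild-type library 2 was the lowest for both, and without it the values were 0.40 for Ctsa and 0.31 for Tpp1.

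The 10 glycosidases and sulfatases remove sugars or sulfate groups from glycoproteins, glycolipids and glycosaminoglycans. Of these, 8 were higher and 2 lower in the libraries labelled knockout, at a group median of 0.19 on the log2 scale and with none past the adjusted threshold. The group median was 0.087 without knockout library 1, 0.12 without wild-type library 2, 0.36 without knockout library 2, 0.34 without wild-type library 3 and -0.047 without knockout libraries 1 and 3. Their summed normalized counts were 23718, 21804 and 22975 in the libraries labelled knockout and 17485, 15449 and 21742 in the wild-type libraries. The lowest sum labelled knockout thus nearly met the highest wild-type sum.

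Gaa (chromosome 11, 119267887 to 119285454, + strand), the acid alpha-glucosidase that degrades glycogen, had 2955, 2103 and 1847 normalized counts in the libraries labelled knockout and 1525, 1165 and 1772 in wild type. The ranges lay apart, and Gaa had the highest log2 fold change of the members, 0.62 (SE 0.23, 95% CI 0.11 to 1.14, BH-adjusted p = 0.437 by limma). It was 0.43 without knockout library 1 and 0.77 without library 3. Man2b1 (chromosome 8, 85083270 to 85098282, + strand), the lysosomal alpha-mannosidase, had 4163, 3209 and 3167 normalized counts in the libraries labelled knockout and 2539, 1936 and 2761 in wild type, again without overlap. In log2 units the fold change was 0.55 (SE 0.19, 95% CI 0.11 to 0.99, BH-adjusted p = 0.431 by limma).

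Neu1 (chromosome 17, 34931253 to 34935953, + strand), the neuraminidase of the complex with Ctsa, had 7849, 8850.0 and 8420.5 normalized counts in the libraries labelled knockout and 5769, 5309 and 7833 in wild type. The groups did not overlap by a narrow margin, since knockout library 1 and wild-type library 3 differed little. Under the alternative TMM scaling, which multiplied these 2 libraries by 0.9805 and 0.999, the groups of Neu1 overlapped. Its log2 fold change on the deposited scale was 0.43 (SE 0.19, 95% CI 0.0008 to 0.86, BH-adjusted p = 0.493 by limma), and 0.32 without wild-type library 2. The third partner, beta-galactosidase (Glb1), had 2326, 1981 and 2318 normalized counts in the libraries labelled knockout and 1960.1, 1604 and 2638 in wild type. The ranges overlapped, at a log2 fold change of 0.12 (SE 0.20, BH-adjusted p = 0.860 by limma). The sulfatase Galns stood at 0.32 on the log2 scale, Gla at 0.24, the hexosaminidase subunit Hexa at 0.13, the beta-mannosidase Manba at 0.06, the arylsulfatase Arsa at -0.01 and the beta-glucuronidase Gusb at -0.26, all with overlapping groups. When single libraries were left out, Galns was lowest at 0.16 with wild-type library 2 omitted and highest at 0.50 with wild-type library 3 omitted, Gla ran from 0.075 (without knockout library 1) to 0.46 (without knockout library 2) and Gusb from -0.37 (without knockout library 3) to -0.13 (without knockout library 1). Hexa rested on knockout library 1, with 1514, 729 and 993 normalized counts in the libraries labelled knockout and 949, 922 and 952 in wild type, and was at -0.14 without that library.

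**Figure D4:**
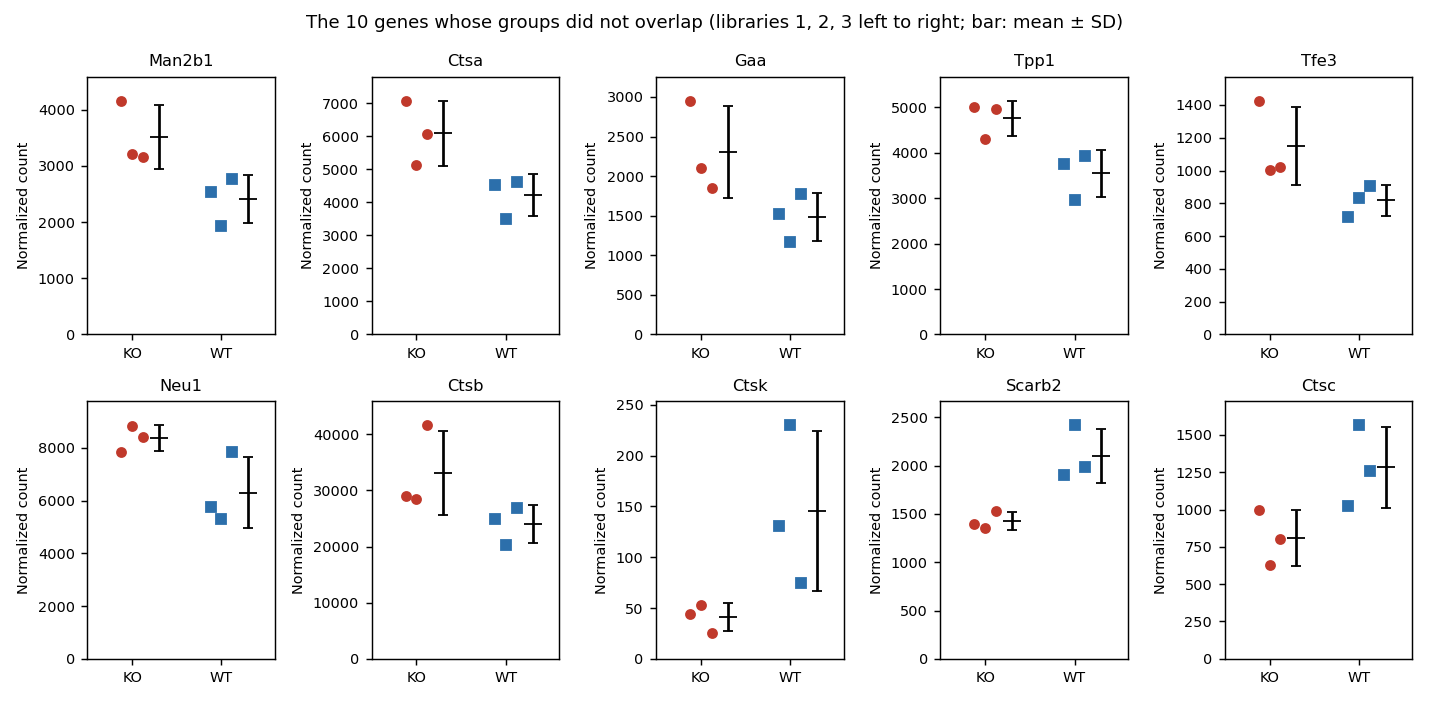
Normalized counts by library of the 10 members whose groups do not overlap, each panel with its own axis from 0, labelled knockout on the left and wild type on the right, with bars for the mean ± SD (n = 3). The 7 panels with higher values in the libraries labelled knockout include Gaa and Ctsa, and the 3 with lower values are Scarb2, Ctsk and Ctsc.

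The lipid enzymes, activators and granulin had a median log2 fold change of 0.03 over 5 genes, with no member at an unadjusted p under 0.05, and the median was -0.04 without knockout library 3 and 0.14 without knockout library 2. Psap (chromosome 10, 60277627 to 60302597, + strand) had 37710.4, 30968 and 39983 normalized counts in the libraries labelled knockout and 36462, 33388 and 41886 in wild type. The groups overlapped, with a log2 fold change of -0.04 (SE 0.19, 95% CI -0.47 to 0.39, BH-adjusted p = 0.955 by limma). Granulin (Grn), whose precursor is cleaved in the lysosome and supports hydrolase activity, had 4719, 5675 and 7682 normalized counts in the libraries labelled knockout and 5423, 5902 and 7481 in wild type. The fitted log2 fold change was -0.07 (SE 0.22, BH-adjusted p = 0.931 by limma). The acid lipase Lipa was at 0.17 on the log2 scale, the acid ceramidase Asah1 at 0.11 and the cholesterol carrier Npc2 at 0.03, with overlapping groups, and Lipa was at 0.016 without knockout library 1.

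Of the 7 membrane proteins, 4 were higher and 3 lower in the libraries labelled knockout, with a median log2 fold change of 0.17 that was 0.07 without wild-type library 1. Scarb2 (chromosome 5, 92441314 to 92506833, - strand), also called LIMP-2, carries glucocerebrosidase to the lysosome without the mannose 6-phosphate tag. It had 1397, 1353 and 1528 normalized counts in the libraries labelled knockout and 1906, 2423 and 1983 in the wild-type libraries. The groups did not overlap and the libraries labelled knockout lay close together, with means of 1426 ± 91.0 in that group and 2104 ± 279 in wild type (SD, n = 3 each). This gave a log2 fold change of -0.55 (SE 0.16, 95% CI -0.91 to -0.20, BH-adjusted p = 0.391 by limma, DESeq2 adjusted p = 0.139). It ranged from -0.62 to -0.45 when single libraries were left out.

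The lining proteins Lamp1 and Lamp2 were higher on average with overlapping groups. Lamp1 (chromosome 8, 13159161 to 13175338, + strand) had 22640.5, 18579 and 22793 normalized counts in the libraries labelled knockout and 18809, 15663 and 19709.8 in wild type. Against wild type the log2 fold change was 0.24 (SE 0.18, 95% CI -0.17 to 0.65, BH-adjusted p = 0.671 by limma), with 0.14 without wild-type library 2 and 0.048 without knockout libraries 1 and 3. Lamp2 (chromosome X, 38401357 to 38456454, - strand), which also takes part in the fusion of autophagosomes and in chaperone-mediated autophagy, had 13773, 9723 and 13654 normalized counts in the libraries labelled knockout and 11205, 8592 and 9595 in wild type. That is a log2 fold change of 0.33 (SE 0.20, BH-adjusted p = 0.599 by limma), with knockout libraries 1 and 3 high and library 2 within the wild-type range, and it was 0.49 without knockout library 2.

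Mcoln1 (chromosome 8, 3500457 to 3515232, + strand), the calcium channel that releases lysosomal calcium toward TFEB activation, had 1213, 1295 and 1460.4 normalized counts in the libraries labelled knockout and 1131, 1103 and 1223 in wild type. The groups overlapped by a narrow margin, with a log2 fold change of 0.20 (SE 0.15, 95% CI -0.14 to 0.53, BH-adjusted p = 0.674 by limma) that was 0.12 without knockout library 3. Cd63 had 16364, 22304 and 26858 normalized counts in the libraries labelled knockout and 25599, 20303 and 20528 in wild type, a log2 fold change of -0.04 (SE 0.22, BH-adjusted p = 0.962 by limma). Npc1 had 962, 429 and 566 normalized counts in the libraries labelled knockout and 477, 611 and 567 in wild type. A log2 fold change of 0.17 rested on knockout library 1 and was -0.15 without it. Laptm4a stood at -0.06 on the log2 scale and ran from -0.16 to -0.006 when single libraries were left out.

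Some members share sequence with other annotated transcripts, and the sources used here do not give whether counting used strand, so those counts are uncertain. Over windows of 50 bases, 36.6% of the annotated Ctsd sequence and 28.1% of that of Ctsl also lay in other transcript models, and 17.3% did for Arsa. The genes sharing most with Ctsd and Ctsl, Gm49369 and Gm47123, were not among the listed genes. The share was 15.8% for Ctsa and 15.4% for Ctsb, where most of it came from the opposite-strand genes Pltp and Fdft1. For Cd63 it was 9.10%, most of it shared with the pseudogene Cd63-ps. It was 10.6% for Hexa, shared with Tmem202, and 7.11% for Lamp1, shared with Grtp1. Gaa, Man2b1, Tpp1, Neu1, Tfe3, Scarb2 and Ctsk shared none.

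Further genes of the lysosomal system were taken from lists chosen by function, with earlier results of these data known. Of 31 other lysosomal hydrolases and activators, 24 were higher and 7 lower in the libraries labelled knockout, at a list median of 0.21 on the log2 scale and with 6 at an unadjusted p under 0.05, all higher, where 3.94% of all tested genes were. None passed limma's adjusted threshold. With DESeq2 1 of them rose, where 0.598% of genes did. It was Man2b2, a relative of the alpha-mannosidase Man2b1. Man2b2 had 1728, 1403 and 1555 normalized counts in the libraries labelled knockout and 932, 877 and 1065 in wild type, well apart. On the log2 scale its fold change was 0.70 (SE 0.16, BH-adjusted p = 0.373 by limma, DESeq2 adjusted p = 0.0334). The acid sphingomyelinase Smpd1 and the phospholipase B-like Plbd2 were at 0.49 and 0.47 on the log2 scale. The asparaginyl endopeptidase Lgmn, which matures several cathepsins, had 22490.1, 26330.3 and 37105 normalized counts in the libraries labelled knockout and 22354, 13552 and 18642 in wild type, with a log2 fold change of 0.65 (SE 0.26, BH-adjusted p = 0.458 by limma). The groups did not overlap for 25.8% of these genes, all 8 of them higher, beside 17.7% of all tested genes.

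Of 29 other lysosomal membrane proteins tested, 22 were higher and 7 lower, at a list median of 0.24 log2 units, and 4 had an unadjusted p under 0.05, all higher and none past the adjusted threshold, where 3.94% of all tested genes were higher at that p. The groups did not overlap for 31.0% of them, 8 higher and 1 lower, beside 17.7% of all tested genes. The amino acid transporter Slc36a1 was at 0.59 on the log2 scale, Mfsd12 at 0.47, and the endolysosomal cation channel Tpcn1 at 0.50. Mcoln2, a relative of Mcoln1, was at 2.23 on 1 to 32 reads per library, with 34.5, 17.4 and 32.9 normalized counts in the libraries labelled knockout and 6.69, 0.925 and 13.7 in wild type. Of 23 subunits of the vacuolar proton pump, which acidifies the lysosome, 11 were higher and 12 lower with a median of -0.04, or 0.07 without knockout library 3, and the groups did not overlap for 13.0%. Atp6v0e2 and Atp6v1b2 were at 0.56 and 0.50 on the log2 scale, Atp6v1g3, an intercalated cell subunit, at -0.73 and Atp6v1g1 at -0.42. Atp6v1g3 was at -0.45 without knockout library 3, in which collecting duct markers, Atp6v1g3 among them, summed to 3431 normalized counts. Of 22 genes for mannose 6-phosphate tagging and sorting, 15 were higher and 7 lower with a median of 0.16, and the groups did not overlap for 27.3%. The adaptor subunit Ap3d1 had 3614, 3101 and 3159 normalized counts in the libraries labelled knockout and 2360.5, 2186 and 2405 in wild type, with a log2 fold change of 0.50 (SE 0.15, BH-adjusted p = 0.391 by limma). The sorting adaptor Gga3 was at 0.37, and Gnptab and Gnptg, subunits of the phosphotransferase that starts the tag, at 0.35 and 0.34, all with groups apart and none past the adjusted threshold.

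Of 25 regulators of TFEB and TFE3, 15 were higher and 10 lower with a median log2 fold change of 0.04 that was -0.03 without knockout library 1. Groups lay apart for 28% of them, 4 higher and 3 lower, beside 17.7% of all tested genes. The Ragulator subunits Lamtor4 and Lamtor2, which anchor the Rag GTPases to the lysosome, were at -0.60 and -0.42 on the log2 scale, with BH-adjusted p of 0.423 and 0.493 by limma. The Rag regulator folliculin (Flcn) had 1840.0, 782 and 782 normalized counts in the libraries labelled knockout and 734, 509.8 and 568 in wild type. In log2 units the fold change was 0.80 (SE 0.34, BH-adjusted p = 0.481 by limma) and 0.39 without knockout library 1. Tsc2, an inhibitor of mTORC1, was at 0.32.

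Markers of other cell types differed between libraries as well. Proximal tubule markers were higher for 12 of 15 genes, at a list median of 0.62 log2 units that was 0.14 without knockout library 1. Their sums overlapped and were not higher on average, with means of 275577 ± 12648 in the libraries labelled knockout and 289308 ± 42082 in wild type (SD). Knockout library 3 stood apart in the later nephron. Thick limb and distal tubule markers summed to 88322, 45845 and 23030.2 normalized counts in the libraries labelled knockout and 41496, 75531 and 80706 in wild type, and collecting duct markers to 22849, 13807 and 3431 in the libraries labelled knockout and 12026, 10162 and 14718 in wild type. Endothelial markers summed to 9944, 7606 and 3674 normalized counts in the libraries labelled knockout and 13471, 15532 and 8623 in wild type, with 7 of 8 genes lower. Macrophage and monocyte markers overlapped, with sums of 13581, 7320.3 and 9661 in the libraries labelled knockout and 7855, 12466 and 9102 in wild type, 7 of 16 higher. Among the wild-type libraries, library 2 was highest both for this sum and for Ctss, but libraries 1 and 3 stood in opposite order. Among the libraries labelled knockout, library 1 was highest for the sum and library 3 for Ctss. No marker in these lists was at 0 in all libraries, while 7 neutrophil, 4 fat cell and 1 erythrocyte marker, 1 collecting duct marker and Lum of the fibroblast list were at 0 in at least 1. Their part in the values of the lysosomal genes was not tested. Knockout library 1 also held fat cell markers at 63316 normalized counts against 749 to 3868 elsewhere, erythrocyte markers at 13553 against 768 to 2976, and neutrophil markers at 5007 against 526 to 1672. Without that library, Gaa, Man2b1, Ctsa and Tpp1 were at 0.43, 0.42, 0.42 and 0.39 on the log2 scale, and Tfe3 was at 0.31. Hexa, Npc1 and Npc2 turned to -0.14, -0.15 and -0.14 without it, and Cd63 and Grn turned to 0.15 and 0.089.

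**Figure D5:**
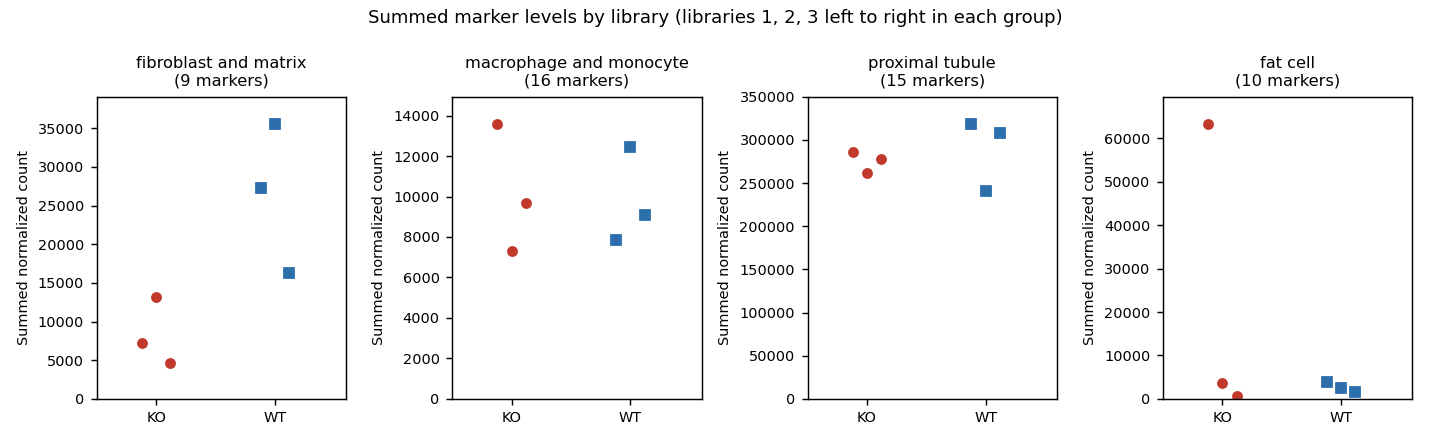
Summed normalized counts of marker lists by library, each panel with its own axis from 0, labelled knockout on the left and wild type on the right, 1 point per library. Fibroblast and matrix markers run from 4569 to 13125 in the libraries labelled knockout and from 16296 to 35541 in wild type, and fat cell markers reach 63316 in knockout library 1.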

How the data were processed

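RNA from 6 injured mouse kidneys was sequenced, and samples were grouped by the genotype and treatment in the labels. What the authors deposited is a signal for each gene, in the form of read counts scaled by a single size factor for each library. Within 0.001 reads, 100% of values were whole multiples of 1 step, so whole reads were recovered. The build was mm10, per the submitters' processing notes. Not given in the sources used here are the aligner, the counting program, strand use and the annotation release. Gene lengths, coordinates and symbols are those in the deposited tables, where the length is a value per gene in bases. Coordinates are 1-based as listed there.

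Groups were compared with limma 3.58.1 (trend and robust options, R 4.3.3) on log2(normalized count + 1), for the 21721 genes whose mean reached 1, with Benjamini-Hochberg adjustment and a threshold of 0.05. Fold changes on this scale understate the change of low genes. Alternatives were edgeR 4.0.16 (15915 genes) and DESeq2 1.42.0 (17223 genes with an adjusted p) on the recovered reads, other pseudocounts and filters, TMM scaling, limma without trend and robust, a replicate block and the omission of libraries. The models were tested on simulated data. Members and gene lists were chosen with earlier results of these data known. Given in every library were Tfeb, Tfe3, Lamp1, Lamp2, Ctsb, Ctsd, Ctsl, Mcoln1 and Grn, members with an unadjusted p under 0.05 or groups apart, and the 5 highest per kilobase. From each other list, up to 4 genes with the smallest p were named. Glb1, Ctss, Hexa and Npc1 were added after their values were seen. Pairs of libraries differed by 34.0 to 179 in chi-square per degree of freedom, so none was counted as the same library deposited again. Same-numbered libraries deviated together with correlations of 0.0674, -0.148 and 0.122 and were not treated as pairs.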

Additional observations from a re-analysis of the deposited data

How the results depend on the processing

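Of 16 alternatives, 4 (the other filters, limma without trend and robust options, and the block) leave every fold change as it was. Under the other 12, 33 of 408 member log2 fold changes turned, all of them where libraries were left out, in 16 of the 34 members. No member passed the threshold under any alternative except Ctsk with DESeq2 (1 member, -1.82). Genes past the threshold over all tested numbered 1, against 5 with a pseudocount of 5, 5 without the filter, 4 with TMM scaling, 0 without trend and robust options and 310 with DESeq2. They numbered 1 to 6 with a library left out (6 without knockout library 1, 3 without knockout library 3) and 4 without knockout libraries 1 and 3. Same-numbered libraries were not treated as pairs, since their correlations were 0.0674, -0.148 and 0.122 and the labels do not state a pairing. With the replicate block 16 genes passed the threshold and 0 members. The median member log2 fold change was 0.078 to 0.20 with a library left out and -0.066 without knockout libraries 1 and 3. The count of members without overlap was 9 with TMM scaling (17.6% of all genes), 10 to 14 with a library left out (22.6% to 31.7% of all genes) and 20 without both (56.0% of all genes); fewer samples make overlap rarer.

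Without knockout libraries 1 and 3, Lamp2 was at -0.0023, Ctsl at -0.12, Hexa at -0.37, Glb1 at -0.031, Npc1 at -0.35, Npc2 at -0.21, Cd63 at 0.019, Manba at -0.16 and Gla at -0.20, each with its direction turned. With single libraries left out, the range was -0.079 to 0.32 for Ctsl, -0.33 to 0.34 for Ctss, -0.26 to 0.022 for Ctsz, -0.14 to 0.38 for Hexa, -0.046 to 0.31 for Glb1, -0.15 to 0.43 for Npc1, -0.14 to 0.15 for Npc2 and -0.12 to 0.066 for Psap. It was -0.20 to 0.15 for Cd63, -0.26 to 0.089 for Grn, -0.083 to 0.17 for Manba, -0.16 to 0.11 for Arsa, -0.040 to 0.22 for Asah1 and -0.066 to 0.26 for Tfeb. The cause was not tested. Ctsk rests on 25 to 249 reads per library, and the other members on at least 159.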

Other observations

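The inhibitors of cathepsins formed a further group of the lysosomal system. Of 10 listed by function, 5 were tested, and 3 of these were lower in the libraries labelled knockout. Serpinb6a, whose human counterpart inhibits cathepsin G, had 759, 875 and 1384 normalized counts in the libraries labelled knockout and 1902, 2959 and 1787 in the wild-type libraries, without overlap. Its log2 fold change was -1.15 (SE 0.27, BH-adjusted p = 0.374 by limma), and it fell with DESeq2 (adjusted p = 0.0286). Cystatin B (Cstb), a cytosolic inhibitor of cathepsins B, H, L and S, had 1514, 2909 and 4358 normalized counts in the libraries labelled knockout and 4746, 5500.4 and 4481 in wild type. The fitted log2 fold change was -0.87 (SE 0.35, BH-adjusted p = 0.467 by limma) and -0.46 without knockout library 1. Cst6 was at -1.14 on the log2 scale with overlapping groups, and Cst3, the secreted cystatin C, was at 0.04. Stfa1, a stefin, was at 2.14 (SE 0.84, BH-adjusted p = 0.458 by limma) on 0 to 12 reads per library, and it was the 1 inhibitor higher at an unadjusted p under 0.05.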
